A study of Mus musculus and blank sample with 191 samples.

Results

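The genes described here are 10 effectors of the Hippo pathway, Tead1, Tead2, Tead3, Tead4, Vgll3, Vgll4, Yap1, Wwtr1, Ccn1 and Ccn2, out of 19962 targets of a spatial whole-transcriptome panel. They were listed by name, and 3 of them (Tead2, Vgll3 and Ccn2) were picked for their differences between genotypes in these same samples. The genotype values of those 3 chose them and are given as a description, with no test. The other 7 were listed beside them as partners in the same pathway. All 10 are among the 14881 targets that the authors' detection filter kept.

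The samples were regions of uterus cores. Some came from mice with 1 PV allele of Thra, the gene of thyroid hormone receptor alpha 1 (Thra1 PV/+, labelled PV/N, here PV), and the others from wild-type mice (labelled N/N, here WT). PV is a dominant negative receptor carried in the germline, so all tissues of a PV mouse carry it, and no treatment was given in the labels of either group. The 6 PV mice were 2.4 to 6.3 months old (median 4.1) and the 8 WT mice 4.0 to 9.0 months (median 5.85), so the PV mice were the younger group. Per the methods the mice were matched for estrous cycle. GeoMx profiling releases barcoded probes by light from regions that a pathologist outlined by morphology, cytokeratin and smooth muscle actin staining, and each region was labelled epithelium or stroma.

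Values are from the 95 regions of the first plate. There PV mice gave 31 regions of epithelium and 21 of stroma, and WT mice gave 29 of epithelium (8 mice) and 14 of stroma (7 mice). In all 95 the balance of 12 columnar epithelium and 10 fibroblast genes lay on the side of the label, which holds for 56 of 94 regions on the second plate. The second plate was therefore kept as an alternative, also without 56 consecutive wells that follow the label of the next well (the displaced wells). That stretch was itself found with these marker genes. Counts were summed per mouse and compartment. The smallest and largest of these sums held 61691 and 13492532 counts for epithelium, and 85336 and 5195248 for stroma. PV2 gave the smallest sum in both, from 1 region each. Levels are log2 CPM, counts scaled to the library total of the filtered genes after TMM adjustment, on a log2 scale. Apart from a few multi-probe targets each gene was read by 1 probe, so log2 CPM levels of different genes are not set against each other.

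The Hippo pathway is a kinase cascade that controls organ size and tissue repair. When it is active, the kinases hold the coactivators YAP (Yap1) and TAZ (Wwtr1) in the cytoplasm. When it is off, both enter the nucleus and bind TEAD transcription factors, which switch on genes such as Ccn1 and Ccn2. Vestigial-like proteins bind the same surface of TEAD, and VGLL4 competes with YAP there. In the uterus the pathway is known for its part in epithelial growth and in the response of stromal cells to stretch and matrix. Transcript levels do not report the nuclear entry by which YAP and TAZ are controlled.

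Between epithelium and stroma of the same 13 mice, 5 of the 10 effectors were higher in stroma, 1 was higher in epithelium and 4 were not called. Over all 14881 genes the quasi-likelihood test of edgeR, with the mouse as a block and Benjamini-Hochberg adjustment, called 34.6% higher in stroma and 28.4% higher in epithelium at an adjusted p under 0.05. With 10 genes, 5 higher in stroma is not far from the background share, and the counts say nothing particular about the effectors. Their median log2 fold change of epithelium minus stroma was -0.21, beside -0.05 over all genes. In bulk regions of this kind, fewer cells of a type and less RNA per cell cannot be told apart.

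**Figure D1:**
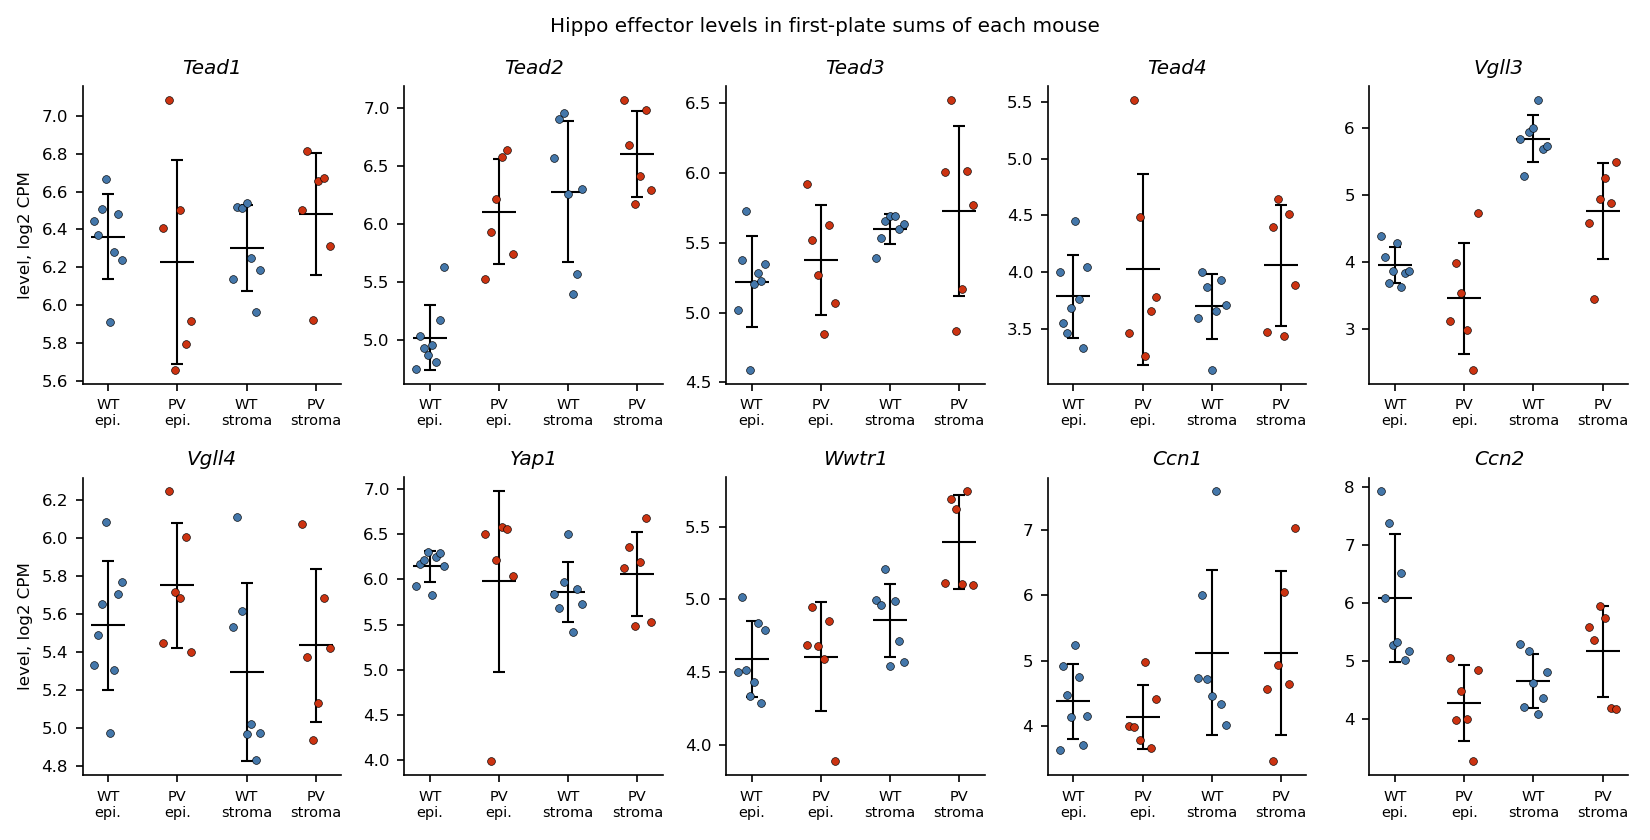
Levels of the 10 effectors (log2 CPM) in the first-plate sum of each mouse, 1 point a mouse, for WT (blue) and PV (red) epithelium (epi.) and stroma. The horizontal bar is the mean and the whiskers are the SD. The mean of Vgll3 is higher in stroma than in epithelium in both genotypes, and Ccn2 is high in WT epithelium, with 7.94 log2 CPM in the highest mouse. The vertical axes differ between panels and do not start at 0.

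Among the TEAD factors, which bind DNA and carry no activity without a coactivator, Tead2 differed most between compartments. In WT epithelium Tead2 lay at 4.75 to 5.62 log2 CPM (median 4.94, 8 mice) and in WT stroma at 5.40 to 6.96 (median 6.30, 7 mice). In PV mice it lay at 5.52 to 6.64 in epithelium (median 6.07) and 6.17 to 7.07 in stroma (median 6.54, 6 mice each). Tead2 was higher in stroma in 11 of 13 mice, 7 of 7 WT and 4 of 6 PV. The log2 fold change of epithelium minus stroma was -0.93 ± 0.19 (SE; edgeR adjusted p 0.000297), a ratio of 1.91.

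Tead3, the TEAD factor known best from placenta, was higher in stroma by a smaller amount. It lay at 4.59 to 5.73 log2 CPM in WT epithelium (median 5.26) and 5.39 to 5.69 in WT stroma (median 5.64). In PV mice the range was 4.85 to 5.92 in epithelium (median 5.39) and 4.87 to 6.53 in stroma (median 5.89). The groups overlapped, but 11 of 13 mice were higher in stroma, and the log2 fold change was -0.35 ± 0.11 (edgeR adjusted p 0.00848). Over both plates it was -0.15 and not called (adjusted p 0.115), and with the displaced wells of the second plate left out it was -0.31.

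Tead1, the most widely expressed TEAD factor, and Tead4, known for the trophectoderm of the early embryo, were not called. Tead1 ranged from 5.66 to 7.09 log2 CPM in epithelium and from 5.92 to 6.81 in stroma over both genotypes. Its log2 fold change was -0.08 ± 0.10 (edgeR adjusted p 0.509), with an interval of ±1.96 SE from -0.28 to 0.12. Tead4 gave -0.02 ± 0.14 (edgeR adjusted p 0.896), with an interval from -0.30 to 0.25. These intervals leave room for differences of up to about that size in either direction. Tead4 was also the effector nearest to background in epithelium apart from Vgll3. Its median ratio to the negative-probe count was 2.22 in epithelium and 1.96 in stroma regions, against 14.8 and 13.5 for Tead1. Limma over single regions, in which mice were a random effect, gave Tead1 a log2 fold change of -0.22 and an adjusted p of 0.00413.

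The cofactor Vgll3 showed the largest compartment difference of the 10. VGLL3 binds TEAD in place of YAP and is known from muscle, fibroblasts and female-biased immune genes. It lay at 3.63 to 4.38 log2 CPM in WT epithelium (median 3.87) and 5.28 to 6.42 in WT stroma (median 5.83), without overlap. In PV mice it lay at 2.39 to 4.73 in epithelium (median 3.33) and 3.46 to 5.49 in stroma (median 4.91). Vgll3 was higher in stroma in 12 of 13 mice. The exception was PV2, with 1 count of Vgll3 in each compartment. The log2 fold change was -1.83 ± 0.14 (edgeR adjusted p 2.39e-09), a ratio of 3.55. In epithelium regions Vgll3 stood at a median of 2.03 times the negative-probe count, and 51 of 60 were above it. In stroma regions the median was 5.68 times, with 32 of 35 above it.

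Vgll4, the inhibitory cofactor, was not called. It ranged from 4.98 to 6.25 log2 CPM in epithelium and from 4.83 to 6.11 in stroma, and 8 of 13 mice were higher in epithelium. The log2 fold change was 0.23 ± 0.15 (edgeR adjusted p 0.187, interval -0.06 to 0.52). Without PV1 it was 0.34, with an adjusted p of 0.0483.

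The paralogous coactivators lay on opposite sides. Yap1 was at 5.83 to 6.31 log2 CPM in WT epithelium (median 6.19) and 5.42 to 6.51 in WT stroma (median 5.83). In PV mice it was at 3.99 to 6.57 in epithelium (median 6.36) and 5.49 to 6.67 in stroma (median 6.15). It was higher in epithelium in 10 of 13 mice, by a log2 fold change of 0.27 ± 0.11 (edgeR adjusted p 0.0343). That call sits close to the threshold. It was lost without PV1, PV3, PV4, WT2, WT5 or WT7 (adjusted p 0.0530 to 0.0635), and with upper-quartile scaling (0.13, adjusted p 0.249). It was also lost over both plates (0.028, adjusted p 0.830), over both without the displaced wells (0.20, 0.0589), with the negative-probe count subtracted (0.30, 0.0536), with limma over regions (0.14, 0.0623) and on means (0.012, 0.961), and without the mouse as a block (0.23, 0.183). DESeq2 (0.32) and the fit with no gene filter (0.35) called it. Under upper-quartile scaling the median of all genes moved from -0.05 to -0.18, and the share of called genes that were higher in epithelium from 45.1% to 33.5%.

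Wwtr1, which encodes TAZ, was higher in stroma. It lay at 4.29 to 5.01 log2 CPM in WT epithelium (median 4.51) and 4.54 to 5.21 in WT stroma (median 4.96). In PV mice it lay at 3.89 to 4.95 in epithelium (median 4.68) and 5.10 to 5.74 in stroma (median 5.37), without overlap. Wwtr1 was higher in stroma in 5 of 7 WT and 6 of 6 PV mice. The log2 fold change was -0.54 ± 0.11 (edgeR adjusted p 0.000368), with -0.37 ± 0.14 in WT mice and -0.76 ± 0.16 in PV mice. The difference between these was -0.39 ± 0.21 (edgeR adjusted p 0.915).

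Both CCN genes are classical targets of YAP and TEAD and encode secreted matrix proteins. Ccn1 lay at 3.63 to 5.23 log2 CPM in WT epithelium (median 4.31) and 4.01 to 7.59 in WT stroma (median 4.71). In PV mice it lay at 3.66 to 4.98 in epithelium (median 3.99) and 3.46 to 7.02 in stroma (median 4.79). A few mice of both genotypes were high in stroma, WT5 at 7.59, PV6 at 7.02, PV4 at 6.05 and WT2 at 6.00. Ccn1 was higher in stroma in 11 of 13 mice, by a log2 fold change of -1.09 ± 0.21 (edgeR adjusted p 0.000160). Over both plates this was -0.20, with an adjusted p of 0.223, and with the displaced wells left out it was -0.82.

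Ccn2 had no call over all mice, and the genotypes lay on opposite sides. The log2 fold change was 0.53 ± 0.35 (edgeR adjusted p 0.194, interval -0.16 to 1.22). In WT mice Ccn2 was higher in epithelium in 7 of 7, by 1.50 ± 0.28. In PV mice it was higher in stroma in 5 of 6, by -0.89 ± 0.34. These values by genotype are part of what chose the gene. Without PV4 the overall difference was 0.81 (adjusted p 0.0340), and without WT1 it was 0.28. Limma over single regions gave -0.09.

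**Figure D2:**
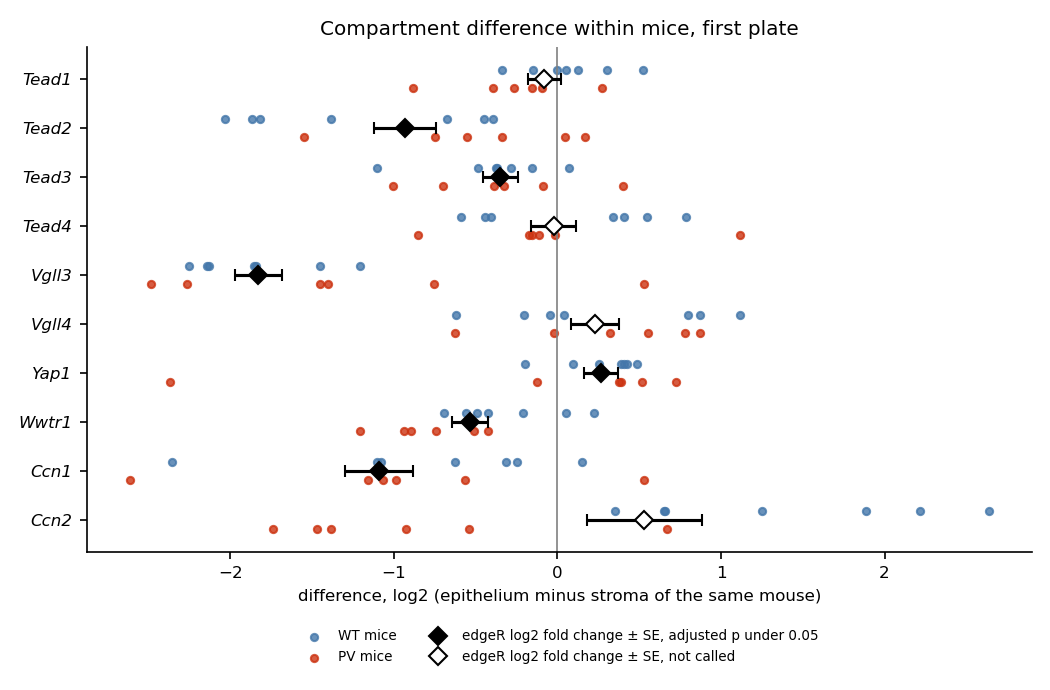
Difference in log2 level between epithelium and stroma of the same mouse for the 10 effectors, with 1 point a mouse (blue WT, red PV). Diamonds are the edgeR log2 fold change ± SE over 13 mice, filled where the adjusted p was under 0.05. Vgll3 lies farthest toward stroma at -1.83, and for Ccn2 all 7 WT mice lie to the right of 0 and 5 of 6 PV mice to the left.

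The promoters of the 6 effectors that were called between compartments are shown for the letters to which TEAD factors are known to bind. RefSeq starts on GRCm38.p6 were given for 7 of the 10 genes (not Tead1, Tead4 and Ccn2), 10 starts in all. The motif GGAATG, read on both strands (CATTCC on the other), was found in the 250 bases before 8 of these 10 starts. It was found in 12.6% of 32851 windows of that length over all genes. Some of the 10 windows overlap, since 3 belong to Tead3 and a pair to Wwtr1. A match is a description of letters and not of binding. The windows below read 5′ to 3′ on the gene's strand, end at the last base before the start, and have the motif in capitals. Ccn1 (chr3:145649986-145650235, minus strand) is shown as the known target, and Vgll3 (chr16:65814939-65815188, plus) and Wwtr1 (chr3:57575911-57576160, minus) as stroma-high genes with a match. Tead3 (chr17:28350601-28350850, minus), also stroma-high, is shown by the window of its 3 that holds 2 matches, and its other windows hold 1 and 0. The window shown lies mostly inside the annotated gene (chr17:28331671-28350805), before an internal start. The window just outside the gene (chr17:28350806-28351055) holds 1 match. Tead2 (chr7:45215542-45215791, plus) is stroma-high without one. Yap1 (chr9:8004597-8004846, minus) is the coactivator called higher in epithelium, by a call close to the threshold that many settings lost.
Ccn1: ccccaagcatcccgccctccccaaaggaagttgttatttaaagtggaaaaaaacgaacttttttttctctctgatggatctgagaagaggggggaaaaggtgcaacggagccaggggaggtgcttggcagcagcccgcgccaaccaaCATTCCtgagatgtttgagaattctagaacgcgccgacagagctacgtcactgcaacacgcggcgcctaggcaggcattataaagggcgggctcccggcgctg
Vgll3: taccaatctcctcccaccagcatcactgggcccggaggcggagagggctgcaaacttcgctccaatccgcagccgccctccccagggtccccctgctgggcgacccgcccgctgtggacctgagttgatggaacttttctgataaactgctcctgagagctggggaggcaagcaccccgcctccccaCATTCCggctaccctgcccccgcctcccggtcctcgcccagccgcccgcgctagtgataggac
Wwtr1: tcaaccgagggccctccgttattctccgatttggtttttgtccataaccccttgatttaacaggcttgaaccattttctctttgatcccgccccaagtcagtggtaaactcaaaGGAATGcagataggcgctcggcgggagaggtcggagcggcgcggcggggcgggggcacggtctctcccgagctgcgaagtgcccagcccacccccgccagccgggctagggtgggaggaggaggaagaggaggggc
Tead3: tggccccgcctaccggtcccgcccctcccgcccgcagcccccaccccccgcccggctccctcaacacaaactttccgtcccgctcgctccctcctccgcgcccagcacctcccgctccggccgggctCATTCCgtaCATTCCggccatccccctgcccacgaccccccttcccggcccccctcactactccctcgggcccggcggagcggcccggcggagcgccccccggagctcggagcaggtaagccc
Tead2: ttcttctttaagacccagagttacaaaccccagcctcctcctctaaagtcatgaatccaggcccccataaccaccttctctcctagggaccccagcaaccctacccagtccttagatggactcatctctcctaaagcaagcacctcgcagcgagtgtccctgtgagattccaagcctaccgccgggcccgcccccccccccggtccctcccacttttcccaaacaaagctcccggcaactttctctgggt
Yap1: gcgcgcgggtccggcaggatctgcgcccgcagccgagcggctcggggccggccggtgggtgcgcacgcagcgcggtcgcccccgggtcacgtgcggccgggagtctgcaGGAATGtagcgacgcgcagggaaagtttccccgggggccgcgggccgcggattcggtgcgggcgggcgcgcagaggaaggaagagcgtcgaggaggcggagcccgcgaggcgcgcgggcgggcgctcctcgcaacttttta
The match begins 103 bases before the start in Ccn1, 63 in Vgll3, 136 in Wwtr1 and 141 in Yap1.

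Between PV and WT mice, no effector was called among the 7 that could be tested, in either compartment. The edgeR test called 0% of the 14881 genes at an adjusted p under 0.05 in epithelium and 0% in stroma. At an unadjusted p under 0.05 it gave 657 genes (4.42%) higher and 566 (3.8%) lower in PV epithelium, and 316 (2.12%) higher and 208 (1.4%) lower in PV stroma. DESeq2 called 28 genes in epithelium and 2 in stroma (Sult1d1 and Klf9, both lower in PV), and limma on per-mouse means called 0 and 0. Of the 7 effectors, 0 had an unadjusted p under 0.05 in epithelium and 1 had in stroma (Wwtr1). The separate mice were also compared by exact permutation of the group means of log2 CPM, two-sided, in 14 tests. An exact permutation p belongs to that difference of means and not to the edgeR log2 fold change printed beside it.

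Tead2 was higher in PV epithelium. The values of 4.75 to 5.62 log2 CPM in WT and 5.52 to 6.64 in PV epithelium overlapped only through WT8 (5.62) and PV1 (5.52), and 6 of 6 PV mice lay above the WT median. The mean was 6.10 ± 0.45 in PV (SD, n = 6) and 5.02 ± 0.28 in WT (n = 8), and the edgeR log2 fold change was 1.16 ± 0.19, a ratio of 2.23. In stroma the groups overlapped widely, where the log2 fold change was 0.28 ± 0.26 and the WT median lay below 4 of 6 PV mice. In PV mice the compartments were thus nearer to each other, at -0.51 ± 0.26 against -1.26 ± 0.23 in WT. Tead2, chosen for this difference, gave 1.03 to 1.29 in epithelium when each mouse was left out, 1.02 with age as a covariate and 0.13 on the second plate, where labels and markers part.

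Vgll3 was lower in PV stroma. The WT values of 5.28 to 6.42 log2 CPM and the PV values of 3.46 to 5.49 overlapped only through WT2 (5.28, 15 counts) and PV6 (5.49), and 0 of 6 PV mice lay above the WT median. The mean was 4.77 ± 0.71 in PV (SD, n = 6) and 5.84 ± 0.35 in WT (n = 7), with an edgeR log2 fold change of -0.90 ± 0.21. In epithelium it was -0.40 ± 0.30, with 4 of 6 PV mice below every WT mouse and PV6 (4.73) above every WT mouse. Without PV6 the epithelium value was -0.93, and without PV4 it was -0.23. In stroma it kept between -1.03 and -0.78 with each mouse left out, and was -1.20 on the second plate, where labels and markers part. Vgll3 was chosen for this difference, so these values are a description.

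Ccn2 was lower in PV epithelium and lay the other way in stroma. In epithelium the WT mice ran from 5.02 to 7.94 log2 CPM (median 5.72) and the PV mice from 3.27 to 5.06 (median 4.25). Only PV1 at 5.06 overlapped the lowest WT mouse, WT7 at 5.02. Some PV values rest on few counts of Ccn2, with 1 in PV2, 6 in PV5 and 20 in PV3, against 54 to 1113 in the WT mice. The mean was 4.28 ± 0.65 in PV (SD, n = 6) and 6.10 ± 1.10 in WT (n = 8), and the edgeR log2 fold change was -2.02 ± 0.51, a ratio of 4.05. In stroma the PV mice ran from 4.18 to 5.95 (median 5.48) and the WT mice from 4.09 to 5.30 (median 4.63). There 4 of 6 PV mice lay above every WT mouse, PV5 and PV6 were among the low ones, and the log2 fold change was 0.65 ± 0.28.

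The WT epithelium values of Ccn2 were unequal. WT1 (6.3 months) stood at 7.94 and WT3 (9.0 months) at 7.39 log2 CPM, whereas WT7, WT8, WT4 and WT5 lay between 5.02 and 5.34. Without WT1 the epithelium difference was -1.61, and with age as a covariate it was -1.30. Under 5 months, with 4 PV and 2 WT mice, it was -0.71 ± 0.67, and from 5 months, with 2 PV and 6 WT mice, it was -2.11 ± 0.70. Age and genotype are partly tied in these mice, and the part of age was not tested for a gene picked on its genotype values.

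Single regions of a mouse differed widely in Ccn2. In epithelium the log2 of the normalised value (Q3, scaled to the region's upper quartile, plus 1) of Ccn2 ran from 1.31 to 6.52 in the 31 PV regions (median 3.32) and from 2.43 to 7.85 in the 29 WT regions (median 5.00). All 4 regions of WT1 lay between 7.00 and 7.85. The 15 regions of PV1 spread over the whole PV range, from 1.31 to 6.52. The SD between regions of the same mouse was 1.31 for Ccn2 in epithelium, the widest of the 10 effectors there, against 0.23 for Yap1. The share of variance between mice of a genotype was 20.6% for Ccn2 in epithelium and 52.6% in stroma.

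**Figure D3:**
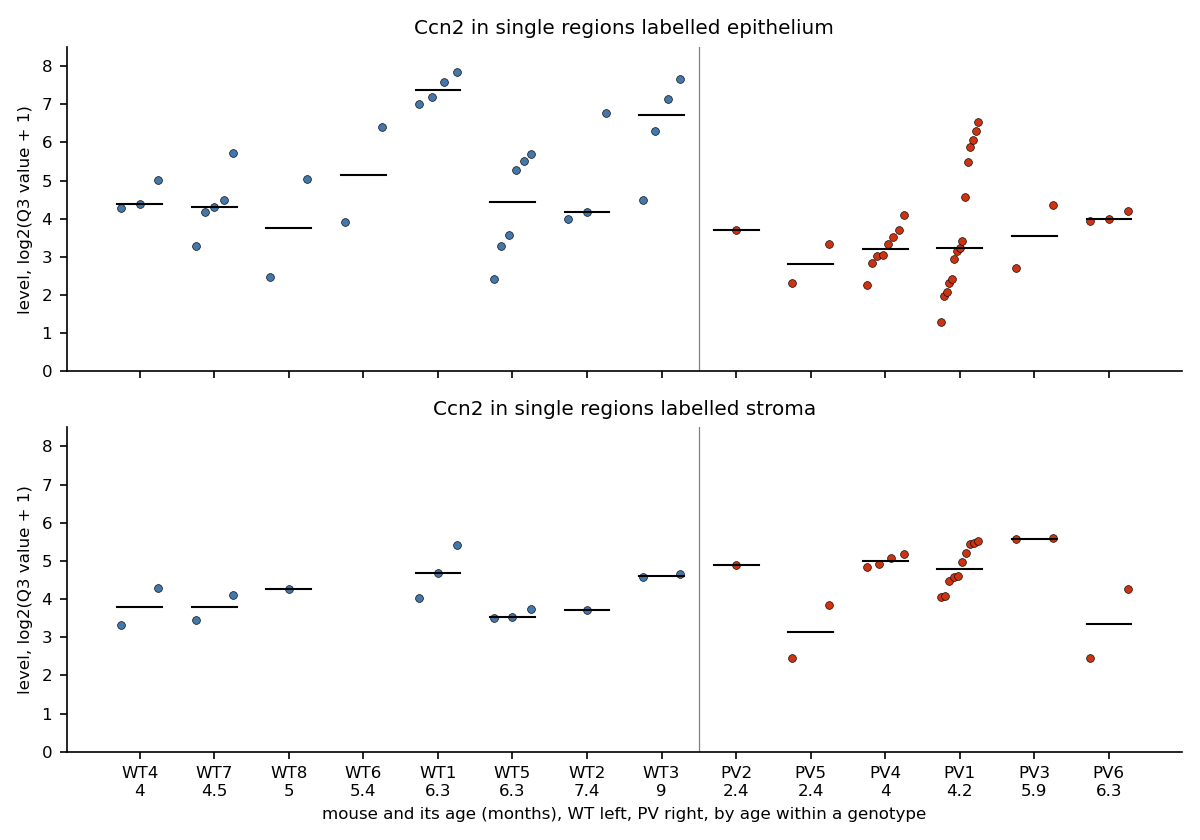
Ccn2 level in every first-plate region, log2(Q3 value + 1), for the regions labelled epithelium (top) and stroma (bottom), by mouse, with age in months below each name. Bars are medians of a mouse, WT is blue and PV red. In epithelium the 4 regions of WT1 lie between 7.00 and 7.85, while the 15 regions of PV1 run from 1.31 to 6.52.

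Ccn1 behaved differently between mice and regions. In stroma 83.6% of its variance lay between mice of a genotype, the highest share of the 10 effectors, and the 3 regions of WT5 lay at 6.86 to 7.34 and both regions of PV6 at 6.28 and 6.60. Within mice, Ccn1 and Ccn2 varied together with r = 0.54 over 59 epithelium regions of 13 mice and r = 0.46 over 32 stroma regions of 10 mice. Regions of a mouse share its section and the points share library depth, so these correlations are a description.

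Marker lists of other cell types varied with some of these values from region to region. Within mice, Ccn2 in epithelium regions went with fewer columnar transcripts (r = -0.61 with the mean of 12 markers) and more endothelium (r = 0.53, 8 markers) and smooth muscle transcripts (r = 0.48, 7 markers). Tead2 went the other way, with r = 0.47 for the columnar list and -0.60 for the B and plasma cell list. The summed level of 10 fibroblast markers was 511 to 1713 CPM in PV epithelium (median 1103) and 614 to 2181 in WT epithelium (median 1419), beside 3818 to 21031 in stroma. All 10 had a negative log2 fold change in PV epithelium, 0 were called, and the median was -0.45. The 12 columnar markers summed to 2403 to 8773 CPM in PV (median 5835) and 3180 to 7795 in WT epithelium (median 4595), and to 211 to 658 in stroma. In PV epithelium 9 of the 12 had a positive log2 fold change, 3 at an unadjusted p under 0.05 and 0 called, and the median was 0.32. Of 10 squamous markers 2 passed the filter, Krt5, Krt14 and Trp63 not among them, and the 2 summed to 17.5 to 48.3 CPM in PV and 17.6 to 29.1 in WT epithelium. Their part in the Tead2, Vgll3 and Ccn2 values was not tested.

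In stroma some lists stood at different levels in the genotypes, without a call. The 5 B and plasma cell markers summed to 295 to 2312 CPM in PV (median 1351) and 174 to 604 in WT (median 267). The 7 smooth muscle markers summed to 690 to 1852 CPM in PV (median 1323) and 488 to 1629 in WT (median 812). The 8 endothelium markers lay at 389 to 811 in PV and 274 to 438 in WT, the 6 macrophage markers at 193 to 1175 and 423 to 2338, and the 4 T cell markers at 35.2 to 103 and 47.9 to 81.1. No marker of these lists was called between genotypes. Within mice Vgll3 in stroma regions went with the fibroblast list (r = 0.55, 32 regions) and against the T cell and columnar lists (r = -0.49 each). Ccn2 went with endothelium (r = 0.43), smooth muscle (r = 0.41) and the squamous list (r = 0.41), and against the B and plasma cell list (r = -0.50). Tead2 gave r = -0.66 with the B and plasma cell list and 0.47 with smooth muscle. The part of these lists in the stroma values was not tested.

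Of the 7 effectors not picked on genotype, Wwtr1 showed the largest log2 fold change in stroma. Its values of 5.10 to 5.74 log2 CPM in PV and 4.54 to 5.21 in WT stroma overlapped only through WT3 (5.21), and 6 of 6 PV mice lay above the WT median. The 3 PV mice above every WT mouse held 5 (PV2), 24 (PV5) and 34 (PV3) counts of Wwtr1. PV1 (164 counts), PV4 (104) and PV6 (31) lay at 5.10 to 5.11 log2 CPM, below WT3. Among the WT sums, WT2 held 12 counts and WT8 held 15. The mean was 5.39 ± 0.32 in PV (SD, n = 6) and 4.86 ± 0.25 in WT (n = 7), with an exact two-sided permutation p of 0.00583 unadjusted, the lowest of the 14. By edgeR the difference was 0.46 ± 0.18 on the log2 scale (adjusted p 1.00 over all genes), so it was not called. It ran from 0.38 to 0.54 with each mouse left out and was -0.03 on the second plate. In epithelium Wwtr1 gave -0.03 ± 0.18, an exact permutation p of 0.939, and 5 of 6 PV mice above the WT median.

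The other TEAD factors and Vgll4 differed in mean log2 CPM by less than the larger of the group SDs. In stroma the difference exceeded the smaller SD, that of WT, for Tead4 (0.36 against 0.29) and Tead3 (0.13 against 0.11). Tead1 gave -0.17 ± 0.19 in epithelium and 0.18 ± 0.18 in stroma (exact permutation p 0.541 and 0.260). Tead3 gave 0.15 ± 0.20 (0.439) and 0.11 ± 0.20 (0.599) in the same order. Tead4 gave -0.07 ± 0.27 (0.519) and 0.23 ± 0.26 (0.143), while its mean log2 CPM was higher in PV by 0.24 and 0.36. All groups of these genes overlapped between genotypes in both compartments. Vgll4 gave 0.11 ± 0.18 (0.266) and 0.21 ± 0.23 (0.569), and its interval of ±1.96 SE in epithelium, -0.23 to 0.46, leaves room for modest differences either way.

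Yap1 gave 0.17 ± 0.18 in epithelium, although the mean log2 level was lower in PV, at 5.98 ± 1.00 (SD, n = 6) against 6.14 ± 0.17 in WT (n = 8; exact permutation p 0.834). PV2, with 1 count of Yap1 among 61691, lay at 3.99 log2 CPM, and the other PV mice at 6.04 to 6.57. Without PV2 the edgeR value was 0.25. In stroma Yap1 gave 0.18 ± 0.22 (exact permutation p 0.389). Ccn1 gave -0.18 ± 0.29 in epithelium (exact permutation p 0.422). In stroma its value was 0.03 ± 0.57, beside a difference of means of -0.0051 (exact permutation p 0.993). The stroma value changed sign with single mice left out, at -0.50 without PV6 and 1.02 without WT5.

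**Figure D4:**
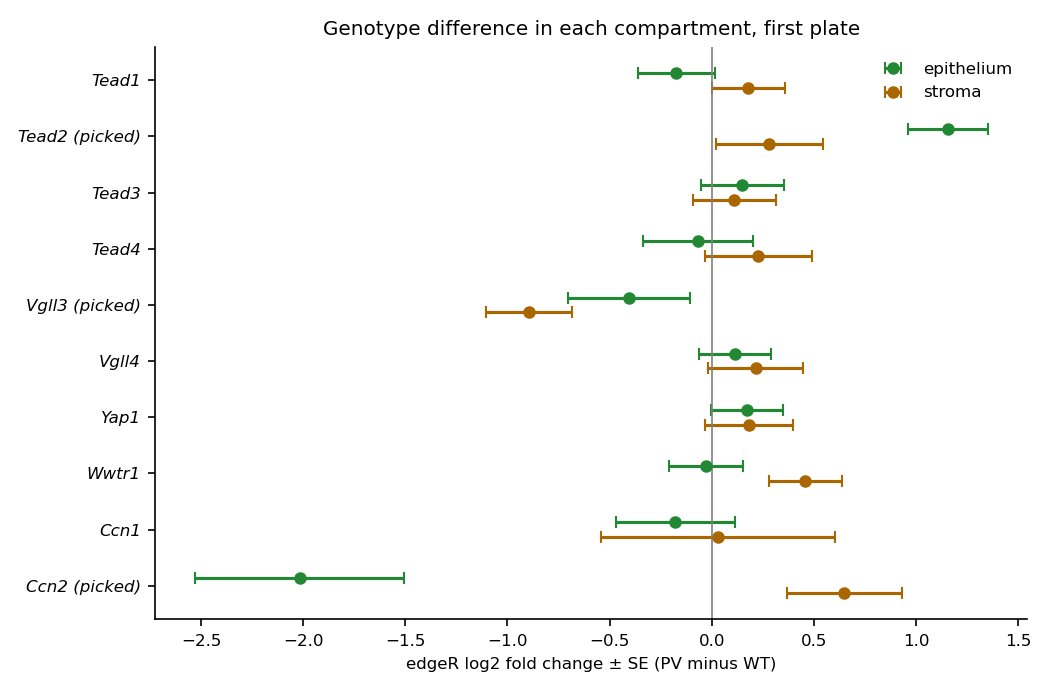
EdgeR log2 fold change ± SE of PV minus WT for each effector in epithelium (green) and stroma (brown), first plate, 6 PV mice against 8 WT mice in epithelium and 7 in stroma. Genes marked as picked were chosen for these values. Ccn2 lies at -2.02 in epithelium and 0.65 in stroma, and the 7 other than the picked genes lie within 0.46 of 0.

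The genotype effect was also compared between compartments and between age classes. For genotype by compartment edgeR called 0% of all genes, with 7.16% at an unadjusted p under 0.05, and 0 of the 7 testable effectors had an unadjusted p under 0.05. No other tool was run for these terms. By age class, edgeR called 0% in epithelium (3.61% at an unadjusted p under 0.05) and 0% in stroma (5.52%). Wwtr1 in epithelium gave 0.44 ± 0.25 under 5 months and -0.43 ± 0.25 from 5 months, a difference of -0.88 ± 0.36 (edgeR adjusted p 1.00). Vgll4 in stroma gave 0.80 ± 0.33 and -0.27 ± 0.33, a difference of -1.07 ± 0.46 (edgeR adjusted p 0.886). These were the 2 of 14 age differences with an unadjusted p under 0.05. Of the picked genes, given with no test, Tead2 in epithelium was 1.29 ± 0.33 in the younger and 0.95 ± 0.29 in the older class, and in stroma 0.91 ± 0.38 and -0.29 ± 0.36. Vgll3 in stroma was -0.96 ± 0.31 and -0.68 ± 0.32, and in epithelium -0.86 ± 0.33 and 0.33 ± 0.30. Ccn2 in epithelium was -0.71 ± 0.67 and -2.11 ± 0.70, and in stroma 1.00 ± 0.44 and 0.40 ± 0.44. The signs were alike in both classes for Tead2 in epithelium, Vgll3 in stroma and Ccn2 in both compartments. They were not alike for Tead2 in stroma and Vgll3 in epithelium. Since the genes were chosen on genotype values of the same mice, like signs are a description and no support.

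The other genes of the pathway were divided between the compartments. Of 17 genes of the kinase cascade and its scaffolds, 7 were higher in epithelium, 3 higher in stroma and 7 not called, with a median log2 fold change of 0.25, beside 28.4% and 34.6% of all genes called higher in epithelium and in stroma. Wwc1, the KIBRA scaffold, was higher in epithelium by 3.48 ± 0.20 (edgeR adjusted p 4.19e-11), Mob1b, an activator of LATS kinases, by 0.68 ± 0.10 and Nf2, which encodes merlin, by 0.60 ± 0.11. Frmd6, a FERM domain partner, was higher in stroma (-1.35 ± 0.13), as were the kinases Lats2 (-1.36 ± 0.16) and Map4k4 (-0.62 ± 0.11). The LATS paralogues lay apart, since Lats1 was higher in epithelium by 0.39 ± 0.09.

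Of 16 upstream cadherins and junction partners, 9 were higher in epithelium and 4 in stroma (28.4% and 34.6% over all genes), with a median of 0.79. The polarity genes Patj (1.61 ± 0.14) and Scrib (0.94 ± 0.09) and the atypical cadherin Fat1 (1.81 ± 0.16) had the lowest p among those higher in epithelium. In stroma these were Dchs1 (-2.48 ± 0.13) and Fat4 (-2.03 ± 0.16), known as a ligand and receptor pair of cadherins, and the angiomotin Amotl1 (-1.69 ± 0.14). Of 20 genes of a YAP and TEAD target signature, 6 were higher in epithelium and 9 in stroma, not far from the shares of 28.4% and 34.6% over all genes, with a median of -0.23. Gadd45a (2.00 ± 0.15), Nt5e (1.83 ± 0.25) and Ptpn14 (1.06 ± 0.16) led in epithelium. Axl (-2.86 ± 0.14), Ccdc80 (-2.93 ± 0.15) and Tgfb2 (-1.79 ± 0.20) led in stroma. Of the 6 family members that are not among the 10, Ccn3 alone passed the filter, at -2.06 ± 0.31. Ptpn14, Lats2 and Amotl2 stand in a pair of these lists each.

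Between genotypes 0 genes of these lists were called by edgeR in either compartment. The median log2 fold changes in epithelium were -0.08 for the kinase list, 0.06 for the upstream list and -0.24 for the target signature, beside -0.01 over all genes, and 14 of the 20 targets had a negative sign there. In stroma they were -0.01, 0.12 and 0.08, beside 0.01 over all genes. Of the 20 targets, 12 had a negative log2 fold change of epithelium minus stroma. All 10 fibroblast markers were also negative in PV epithelium, with a median of -0.45. The part of stromal transcripts in the target values was not tested. At an unadjusted p under 0.05 Axl was lower in PV epithelium (-0.44 ± 0.20) and Fat1 higher (0.39 ± 0.17), and in PV stroma Tjp1, which encodes a tight junction protein, was higher (0.63 ± 0.21), as was Asap1 of the target signature (0.47 ± 0.19). None of these passed the adjustment.

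**Figure D5:**
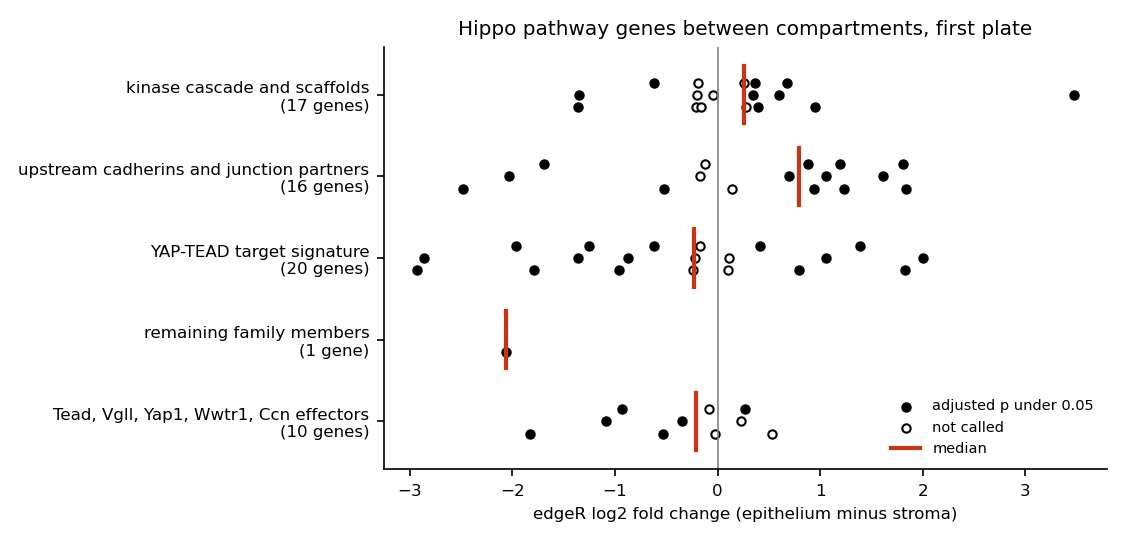
Log2 fold change of epithelium minus stroma for genes of 4 pathway lists and the 10 effectors, first plate, 1 point a gene, filled where the edgeR adjusted p was under 0.05, with the list median as a red bar. The upstream list has its median at 0.79 and the target signature at -0.23, with called genes on both sides of 0 in the 3 larger lists.

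The genes whose level followed an effector most closely over mice were found by Pearson's r of log2 CPM within a compartment, as a description. Over 14 epithelium sums Tead2 was followed most closely by Cavin1 (r = 0.88), Ccn2 by Isg20 (r = 0.89), Ccn1 by C4bp (r = 0.88) and Vgll3 by G6pd2 (r = 0.87). Yap1 reached r = 0.98 with Irf2bp1, where PV2 held 1 count of Yap1. Over 13 stroma sums Tead2 was followed by Clip3 (r = 0.96), Vgll3 by Rfng (r = 0.90), Ccn1 by Slc46a3 (r = 0.92) and Ccn2 by Fam53b (r = 0.86). Sums of the same mice share depth and section, and r over so few sums is no sign of a tie between genes.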

How the data were processed

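Uterus cores on a tissue microarray were profiled by GeoMx. The deposited raw table holds the authors' de-duplicated probe counts per region, called estimated counts here because a few multi-probe targets are not whole. The deposited normalised table holds a signal that the authors scaled to each region's upper quartile (Q3) after their detection filter. The submitters' notes name R 4.1.2. First-plate counts were rounded, summed per mouse and compartment and tested in edgeR 4.0.16 (quasi-likelihood, TMM, R 4.3.3, two-sided), with the mouse as a block between compartments and Benjamini-Hochberg adjustment over 14881 genes. Log2 CPM used a prior count of 2. Alternatives used limma 3.58.1 and DESeq2 1.42.0. The labels name the mouse of each region, and deviations of the 2 compartments of a mouse correlated by 0.160 to 0.526 (13 of 13 over 0.1), against -0.0373 between mice. EdgeR bounds its p by a Poisson test, so that p can exceed what the fold change and SE give. The fits were tested on simulated data.

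The effectors and gene lists were chosen with earlier results of these data known. Named pathway genes are the 3 of lowest p in each direction of a list, and Lats1 was added after its values were seen. The labels name 14 mice and the design text 13. They do not separate luminal from glandular epithelium. Ages are in months per the study. The single-region probe files were not used.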

Additional observations from a re-analysis of the deposited data

Results flagged for a closer look

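Of 40 groups of mice tested, 2 held a mouse far from the others, and chance flags about 1 in 20 groups. Yap1 in PV epithelium was at 3.99 log2 CPM in PV2, with the next mouse at 6.04, a gap of 0.794 of the group's range. That sum comes from 1 region and held 1 count of Yap1. Wwtr1 in PV epithelium was at 3.89 log2 CPM in PV6, with the next mouse at 4.59, a gap of 0.666 of the range.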

How the results depend on the processing

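The compartment call counted 9380 genes on the first plate, 5631 over both plates and 0 on the second plate alone. On the second plate, whose labels and markers part, the compartment values turned for Tead1 (0.050), Tead3 (0.020), Tead4 (0.20), Vgll3 (0.12), Vgll4 (-0.020), Yap1 (-0.17), Wwtr1 (0.031) and Ccn1 (0.46), the epithelium genotype values for Tead3 (-0.047), Tead4 (0.18), Yap1 (-0.16), Wwtr1 (0.27) and Ccn1 (0.84), and the stroma ones for Tead3 (-0.017), Tead4 (-0.0012) and Wwtr1 (-0.028). Over both plates Tead4 (0.053) turned between compartments, as did Tead4 (0.043), Yap1 (-0.028), Wwtr1 (0.11) and Ccn1 (0.43) between genotypes in epithelium. Without the displaced stretch Tead4 (0.012) turned between compartments and Tead3 (-0.0086) and Tead4 (0.042) in epithelium.

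Other settings turned further values, among them Ccn2 between compartments (0.53 in the main fit) and Yap1 in epithelium (0.17 in the main fit). Between compartments the turned values were Tead4 with DESeq2 (0.016), no filter (0.057), negative-probe subtraction (0.091) and limma on means (0.018), Tead1 with no filter (0.00088), and Vgll4 (-0.040) and Ccn2 (-0.089) with limma over regions. In epithelium they were Tead4 with DESeq2 (0.020), subtraction (0.049) and limma on means (0.17), Wwtr1 with no filter (0.032) and limma on means (0.035), Yap1 with limma on means (-0.22) and over regions (-0.066), and Vgll4 (-0.017) and Ccn1 (0.015) with age as a covariate. In stroma they were Ccn1 with DESeq2 (-0.085) and upper-quartile scaling (-0.040), and Tead3 (-0.0012) and Yap1 (-0.083) with age. Genotype calls numbered 0 in epithelium, but 28 with DESeq2, 10 with age and 1 with limma over regions, and in stroma 0, but 2 with DESeq2 and 2 with limma over regions. The cause was not tested.

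With each mouse left out, genotype calls ran from 0 to 6 in epithelium (6 without PV6 or WT5) and from 0 to 1 in stroma. Tead4 ran from -0.12 to 0.040 between compartments. In epithelium Tead3 ran from -0.059 to 0.27, Tead4 from -0.27 to 0.081, Wwtr1 from -0.077 to 0.10 and Ccn1 from -0.48 to 0.00023, and in stroma Tead3 from -0.014 to 0.24, Vgll4 from -0.023 to 0.33 and Ccn1 from -0.50 to 1.02. With no replicate block, that is without the pairing by mouse, the compartment count was 7952, and Yap1 (0.23, adjusted p 0.183) lost its call. Limma on means gave Yap1 0.012 between compartments. Tead2, Tead3, Vgll3, Wwtr1 and Ccn1, the effectors called higher in stroma, kept that sign with every mouse left out. Tead4 and Vgll3 in epithelium were the effectors nearest to the negative-probe count.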

Other observations

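On the second plate the labels and the tissue markers part company. By the balance of columnar and fibroblast genes, 56 of its 94 regions matched their label, beside 95 of 95 on the first plate. Among 56 consecutive wells, 20 matched their own label and all 56 matched that of the following well. In the remaining wells of the plate the label was matched by 36 of 38. The stretch was chosen with the same markers, as the run where matches to the following label most exceeded matches to the own label. These counts are therefore shaped by that choice. On that plate alone Vgll3, the effector with the largest compartment difference on the first plate, gave an epithelium minus stroma log2 fold change of 0.12, and with the stretch left out both plates gave -1.65. The cause was not tested.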
